A study of Arabidopsis thaliana with 9 samples.

Results

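The transcripts of 9 Arabidopsis thaliana genes that carry the brassinosteroid signal from the cell surface to the inside of the cell were followed in 9 RNA-seq libraries of whole seedlings. The genes were taken by their locus names, with earlier results of these data known: the receptor BRI1 (AT4G39400) and its relatives BRL1 (AT1G55610) and BRL3 (AT3G13380), the co-receptor BAK1 (AT4G33430), the receptor inhibitor BKI1 (AT5G42750), the cytoplasmic kinase BSK1 (AT4G35230), and the GSK3 kinases BIN2 (AT4G18710), BIL1 (AT2G30980) and BIL2 (AT1G06390). All 9 are among the 27647 loci of the deposited table and have values in every library. They were compared between seedlings overexpressing the microRNA gene MIR394A (MIR394A OE), wild-type Col-0 seedlings grown with 2 µM Brz in the medium, and untreated Col-0 seedlings, with 3 libraries in each group. All seedlings were 5 days old and had germinated at 22 °C in a cycle of 16 h light and 8 h dark, after 4 days of the seeds at 4 °C, per the labels. By its title, the series asks whether and how miR394 acts on the hormone's signalling while the hypocotyl elongates. Brz is the usual short form of brassinazole, an inhibitor of brassinosteroid synthesis, although the labels do not spell it out. The labels do not name the promoter of the overexpressor, the number of its lines, the treatment of the Col-0 seedlings with a solvent, or whether replicates were grown separately, so a p-value here speaks only of library-to-library spread, which may be technical.

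Brassinosteroids are steroid hormones of plants that are sensed outside the cell. BRI1, a leucine-rich repeat receptor kinase, binds the hormone together with BAK1, and BKI1, which holds BRI1 inactive, then leaves the membrane. The activated receptor phosphorylates BSK1 and related kinases, the BSU1 family of phosphatases comes into action, and BIN2 with its close relatives BIL1 and BIL2 is switched off. In the absence of hormone these GSK3 kinases phosphorylate the transcription factors BZR1 and BES1 and keep them from their target genes, which include genes of hypocotyl elongation and of brassinosteroid synthesis. BRL1 and BRL3 also bind brassinosteroids and are known mainly from vascular cells. Much of this pathway is known to be controlled at the level of the proteins, which transcript levels do not show.

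MIR394A makes miR394a, a small RNA of 20 bases that pairs with the messenger of the F-box gene LCR (AT1G27340). To show how the 9 genes compare with that target, every 20-base window of all their annotated spliced transcripts in TAIR10.1 was paired with miR394a. The score counted 1 for a mismatch and 0.5 for a G:U pair and doubled the count at miRNA positions 2 to 13. The miRNA is printed with its seed (bases 2 to 8) in capitals, and the windows with the bases that pair with it in capitals, all 5′ to 3′:
miR394a: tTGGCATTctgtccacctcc
LCR: GGAGGTtGACAGAATGCCAA
BRI1: GGAtGaaGAaAGAgTGtCAt
BAK1: aGAGaTGGgaAGAgTGgCAA
BIN2: cGtGGaGGACAcAATtCaAA
The LCR window, in the coding sequence at chr1:9497605-9497624 on the + strand, had a score of 1. Among the 9 genes the lowest score was 8, in coding windows of BRI1 (chr4:18326636-18326655, + strand) and of BAK1 (chr4:16086774-16086793, − strand), followed by a score of 9 in the 3′ UTR of BIN2 (chr4:10298994-10299013, + strand). The best windows of the other 6 genes scored 10 to 13. No window of the 9 genes thus came near the pairing of the LCR site, which says only that these letters are not in these transcripts.

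The 3 GSK3 kinases are close relatives, and reads that fit more than 1 of them could be assigned to either gene. In a global alignment of their coding sequences, BIL1 and BIL2 were identical at 87.1% of aligned bases, BIN2 and BIL1 at 77.7%, and BIN2 and BIL2 at 76.8%. The longest run without a difference was 35 bases between BIL1 and BIL2, 20 between BIN2 and BIL1 and 17 between BIN2 and BIL2. The 60 coding bases from the start of the shared run of BIN2, bases 673 to 732 of its coding sequence, are printed as an example of a region the 3 genes share. As it starts at a shared run, it holds fewer differences than the coding sequence as a whole. Capitals mark the bases of BIL1 and BIL2 that differ from BIN2, 7 in each:
BIN2: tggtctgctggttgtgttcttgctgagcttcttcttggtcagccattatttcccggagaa
BIL1: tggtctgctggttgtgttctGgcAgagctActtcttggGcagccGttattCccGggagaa
BIL2: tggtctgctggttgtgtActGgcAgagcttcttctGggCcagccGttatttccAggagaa
BIN2 lies at chr4:10296138-10301228 on the + strand, BIL1 at chr2:13182025-13185973 on the − strand, and BIL2 at chr1:1946746-1950860 on the + strand. The receptors were less alike, with 60.3% identity between BRI1 and BRL1, 60.9% between BRI1 and BRL3 and 79.4% between BRL1 and BRL3. Some of these genes overlap another annotated gene: a long second model of BIN2 shares 1284 bases with AT4G18720 on the same strand, and BIL2 (265 bases), BAK1 (78), BIL1 (26) and BRL3 (4) overlap a gene of the other strand. How the counting treated such reads is not given in the sources used here, so the values of BIN2 and BIL2 in particular may hold reads of a neighbour.

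Across the series, fragment steps in the low FPKM values put the depth at 21.6 to 22.0 M fragments in every library. FPKM counts fragments relative to transcript length and to the mapped total, so levels of different genes share a scale, although length itself moved with the Brz treatment. Of the 24331 loci with values, 17662 had at least 1 FPKM in at least 3 libraries and were tested with limma on log2(FPKM + 1), 7 of the 9 genes among them. A gene was called at a Benjamini-Hochberg adjusted p under 0.05 over all tested genes. All 15 markers of root, green shoot and vascular tissue were detected in all libraries, which are labelled as whole seedlings. The brassinosteroid synthesis genes DWF4 (log2 fold change 0.95), CPD (0.48) and BR6OX2 (1.35) were called higher, and BAS1 (-1.20), whose enzyme inactivates brassinosteroids, was called lower in Brz-treated seedlings than in untreated Col-0, and with the length trend described next removed the 4 were called in the same directions (1.58, 0.79, 1.65 and -0.76). MIR394A itself was not analysed here. Its target LCR had 26.6 ± 1.64 FPKM in MIR394A OE and 24.98 ± 3.61 FPKM in Col-0 (SD, n = 3). On a principal component analysis, Brz replicate 1 lay between the other Brz libraries and the rest on the first component (61.9% of the variance). On the second (16.7%), Brz replicate 1 (-23.6), MIR394A OE replicate 3 (-29) and Col-0 replicate 2 (-26) lay at one end. MIR394A OE replicates 1 (13.6) and 2 (25.6) and Col-0 replicate 3 (21) lay toward the other.

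In the Brz-treated libraries long transcripts were low and short ones high, which bears on every value below. The Spearman correlation between the length of the longest spliced transcript and the fold change between Brz-treated and untreated seedlings was -0.67 over the 17530 genes of known length, which do not count as replicates. The median log2 fold change was 0.38 in the shortest quintile of the genes by length and -0.72 in the longest, and 5.32% and 73.4% of these genes were called lower. The difference between the longest and the shortest quintile, as median deviations from the Col-0 mean, was -0.74, -1.24 and -1.32 in Brz replicates 1, 2 and 3 and -0.06 to 0.05 in the Col-0 libraries. MIR394A OE replicate 3 had -0.27 and the other MIR394A OE libraries 0.06 and 0.01. BRI1 (4375 bases), BRL1 (4414) and BRL3 (4517) are among the longest transcripts, BAK1 has 2821 bases, and the other 5 genes have 1667 to 2089. The fold changes of the members are therefore given as deposited and again with a smooth trend on length removed from every library. What underlies the trend was not tested, and its removal also takes out any response of the seedlings that follows length.

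**Figure D1:**
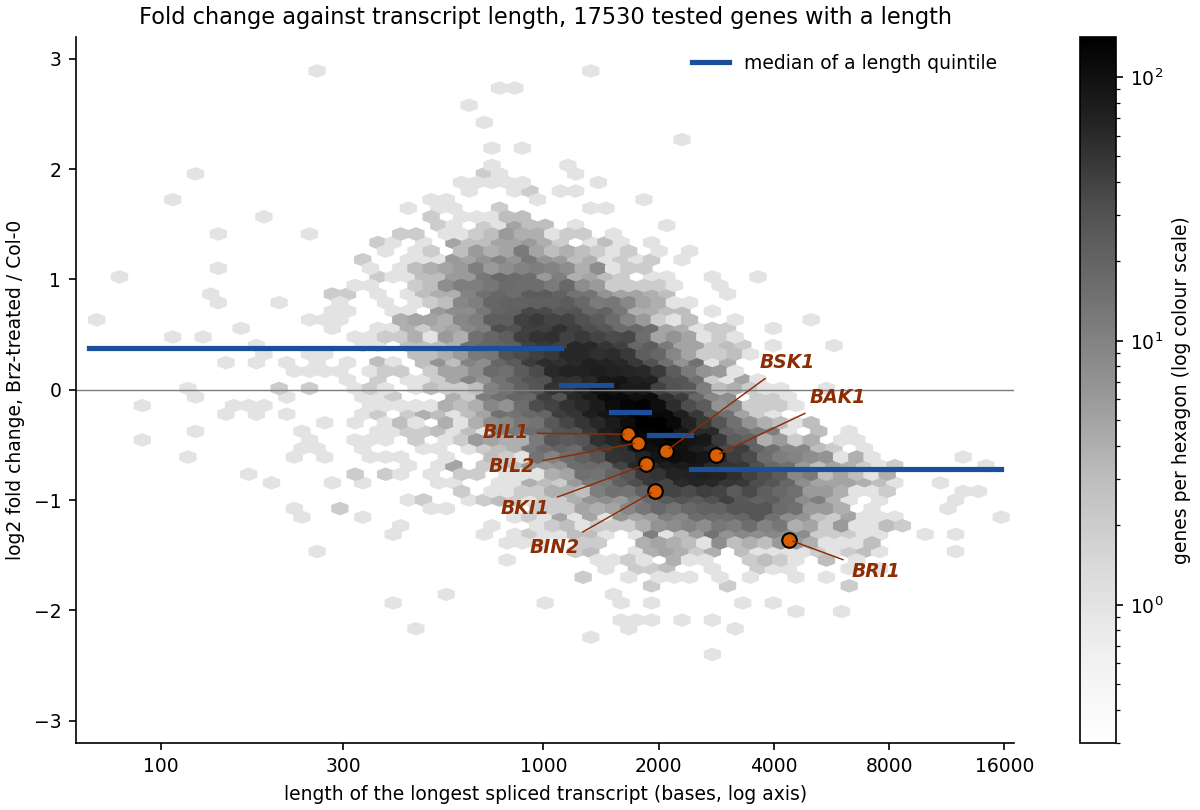
Log2 fold change (Brz-treated over untreated Col-0, FPKM + 1) of the tested genes with a known length against the length of the longest spliced transcript in bases, with grey hexagons shaded by the number of genes, blue lines at the median of each length quintile, and the 7 tested signalling genes in orange. The medians run from 0.38 in the shortest to -0.72 in the longest quintile. BRI1, BKI1 and BIN2 lie well below the median of their own quintile while BAK1 does not.

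BRI1 was the tested member with the largest fold change between Brz-treated and untreated seedlings as deposited, and BIN2 was with the length trend removed. BRI1 had 17.99, 15.00 and 13.67 FPKM in Brz replicates 1 to 3, against 40.05, 36.51 and 47.87 FPKM in Col-0 replicates 1 to 3. Every Brz library was below every Col-0 library, and the Brz mean was 37.5% of the Col-0 mean. BRI1 was called lower by limma, at -1.36 ± 0.19 on the log2 scale (SE, adjusted p = 0.000698), and without the length trend it was not called (-0.45 ± 0.20, adjusted p = 0.125). In the longest quintile of all genes, 2.7% had a lower log2 fold change than BRI1 as deposited. BRI1 was called, at -0.57 (adjusted p = 0.025), in a fit that left out a pair of libraries before removal of the trend. The pair was Col-0 replicate 2 and MIR394A OE replicate 3, which lay at one end of the second principal component. That alternative was chosen after seeing the data, and in each of the 9 fits that left out a single library with the trend removed BRI1 was not called (-0.58 to -0.30, adjusted p from 0.0575 to 0.333). As deposited the call held in all 9 fits that left out a single library, with log2 fold changes of -1.46 to -1.25.

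The BRI1 relatives were scarce. BRL1 had 0.97, 0.71 and 0.58 FPKM in MIR394A OE, 0.40, 0.32 and 0.36 FPKM in Brz-treated and 0.56, 0.69 and 0.75 FPKM in untreated Col-0 libraries. All Brz values of BRL1 lay below all others, and at the fitted depth the BRL1 values of the 9 libraries rest on roughly 30 to 93 fragments each. BRL3 had 0.89, 0.81 and 0.54 FPKM in MIR394A OE, 0.76, 0.38 and 0.63 FPKM in Brz-treated and 0.72, 0.90 and 0.79 FPKM in untreated Col-0 libraries, and its groups overlapped. Neither gene passed the filter on low values. Without that filter BRL1 was called lower in Brz-treated than in untreated seedlings (-0.29, adjusted p = 0.041), but with a pseudocount of 0.1 the adjusted p was 0.0615. With the length trend also removed the sign turned for BRL1 (0.37, adjusted p = 0.356) and for BRL3 (0.70, adjusted p = 0.091). Against Brz-treated seedlings, BRL1 was called higher in MIR394A OE without the filter (0.36, adjusted p = 0.0204), also at a pseudocount of 0.1 (0.87, adjusted p = 0.0362). With the length trend also removed BRL1 had -0.16 there (adjusted p = 0.728). BRI1 made up 96.6% ± 0.4 of the summed FPKM of BRI1, BRL1 and BRL3 in MIR394A OE, 94.2% ± 1.2 in Brz-treated and 96.5% ± 0.6 in untreated seedlings (SD, n = 3).

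BAK1, which partners BRI1 and also several immune receptors, had 12.00, 9.76 and 11.40 FPKM in Brz-treated and 18.18, 15.99 and 17.34 FPKM in untreated Col-0 libraries. The groups did not overlap, and BAK1 was called lower (-0.60 ± 0.15, adjusted p = 0.00844). With the length trend removed the call was lost and the sign turned, at 0.03 ± 0.14 (adjusted p = 0.883), and 65% of the genes in its length class had a lower log2 fold change. The ratio of BRI1 to BAK1 was 1.499, 1.537 and 1.199 in Brz-treated and 2.203, 2.283 and 2.761 in untreated libraries. These ratios did not overlap, and the 2-sided exact permutation test gave p = 0.1 (0.218 adjusted over 24 comparisons of sums and ratios), the smallest p that 3 libraries against 3 allow. BRI1 is the longer of these transcripts, and with the length trend removed neither gene was called (-0.45 for BRI1 and 0.03 for BAK1).

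**Figure D2:**
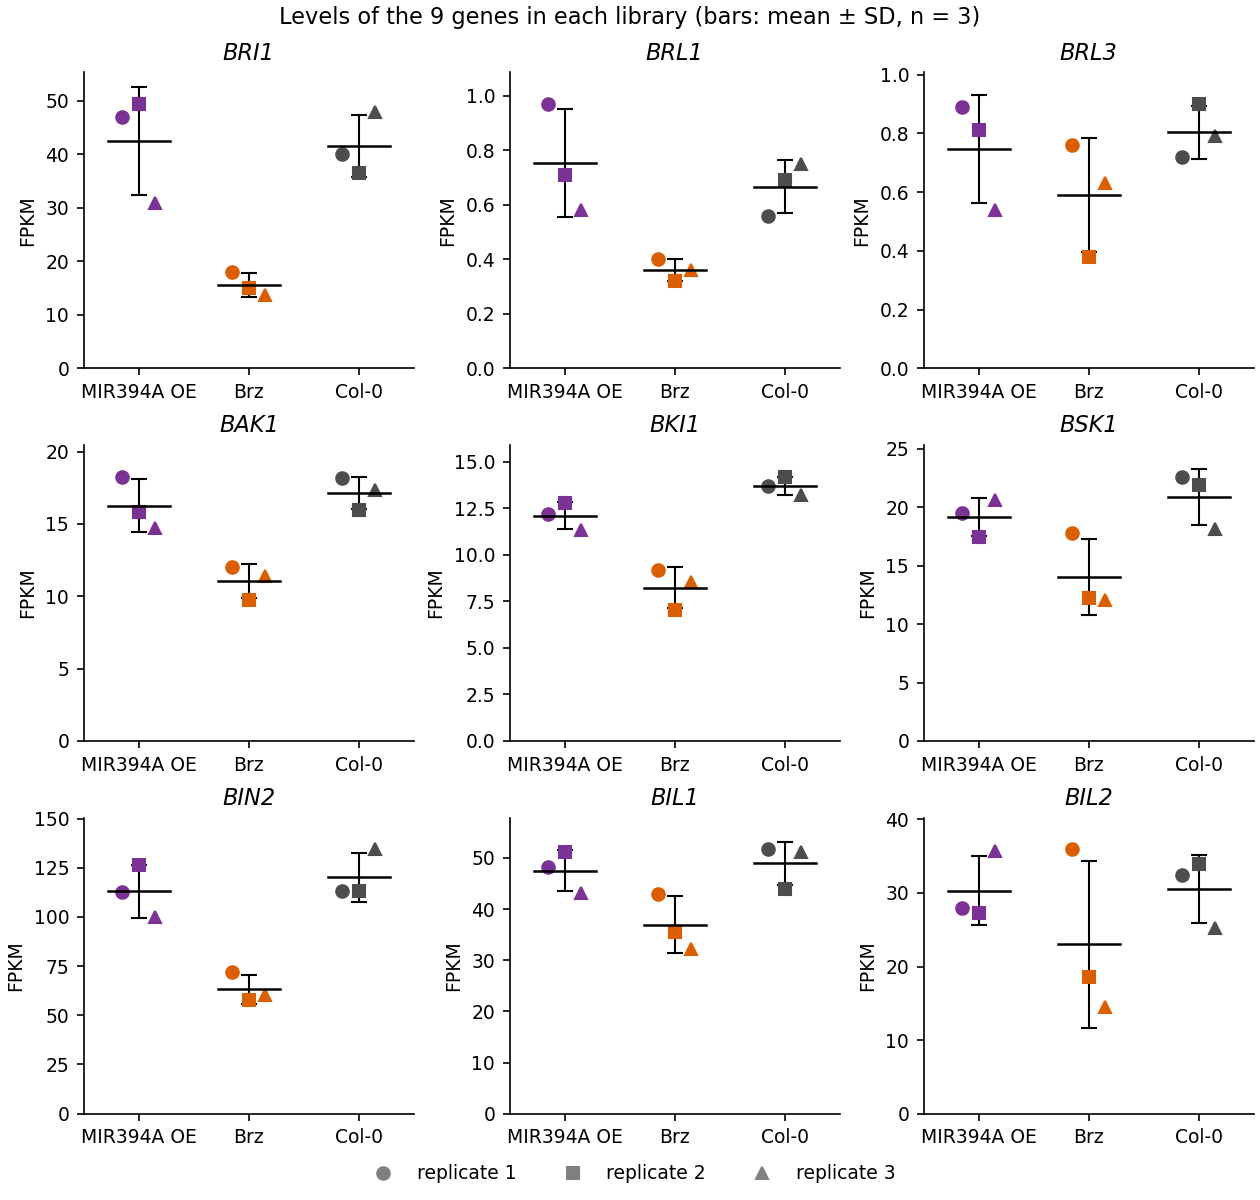
FPKM of the 9 genes in each library, with a panel for each gene, symbols for the replicates, and black lines and bars for the mean and SD of MIR394A OE, Brz-treated and untreated Col-0 seedlings (n = 3 each). BRI1 and BIN2 in the Brz-treated libraries lie far below the other groups, the BIL2 value of Brz replicate 1 (35.93) lies above those of the other Brz libraries, and MIR394A OE and Col-0 overlap in every panel but that of BKI1.

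BKI1, the inhibitor of BRI1, was lower in Brz-treated seedlings along with the receptor it restrains. It had 9.17, 7.01 and 8.55 FPKM in Brz-treated and 13.71, 14.20 and 13.22 FPKM in untreated Col-0 libraries, with no overlap. The log2 fold change was -0.68 ± 0.15 (adjusted p = 0.00459), and BKI1 remained called after removal of the length trend (-0.40 ± 0.12, adjusted p = 0.0336). That second call was lost in 6 of the 9 fits that left out a library, those without a Col-0 library, MIR394A OE replicate 1, Brz replicate 1 or Brz replicate 2, with adjusted p from 0.053 to 0.114 and log2 fold changes from -0.42 to -0.34. The ratio of BRI1 to BKI1 was 1.96, 2.14 and 1.60 in Brz-treated and 2.92, 2.57 and 3.62 in untreated libraries, again without overlap (exact permutation p = 0.1, adjusted 0.218). BRI1 is the longer transcript here too, and with the length trend removed the log2 fold changes lay close together, at -0.45 for BRI1 and -0.40 for BKI1.

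BSK1, a membrane-anchored kinase that BRI1 phosphorylates, had 17.80, 12.24 and 12.08 FPKM in Brz-treated and 22.60, 21.88 and 18.16 FPKM in untreated Col-0 libraries. Brz replicate 1 came close to the lowest Col-0 library. BSK1 was called lower as deposited (-0.56 ± 0.17, adjusted p = 0.023) and not after removal of the length trend (-0.17 ± 0.10, adjusted p = 0.22). The deposited call was also lost without Col-0 replicate 1 (-0.50, adjusted p = 0.0802), Col-0 replicate 2 (-0.52, adjusted p = 0.0665), Brz replicate 2 (-0.48, adjusted p = 0.0985) or Brz replicate 3 (-0.47, adjusted p = 0.0976).

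BIN2, the main brake on the pathway, was the most abundant of the 9 messengers in all groups. It had 71.75, 57.88 and 60.15 FPKM in Brz-treated and 112.95, 113.08 and 134.35 FPKM in untreated Col-0 libraries. All Brz libraries were far below all Col-0 libraries, at 52.7% of the Col-0 mean. BIN2 was called lower both as deposited (-0.92 ± 0.14, adjusted p = 0.000907) and after removal of the length trend (-0.59 ± 0.15, adjusted p = 0.0203). Among genes of its length class, 7.6% had a lower log2 fold change. With the trend removed, the call was lost without Col-0 replicate 3 (-0.47, adjusted p = 0.0642), without Brz replicate 2 (-0.61, adjusted p = 0.0642) and without Brz replicate 3 (-0.61, adjusted p = 0.0578), and kept in the other 6 fits that left out a library.

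BIL1 and BIL2, which act in part redundantly with BIN2, differed less. BIL1 had 43.04, 35.53 and 32.22 FPKM in Brz-treated and 51.68, 44.01 and 51.09 FPKM in untreated Col-0 libraries. The highest Brz library lay just under the lowest Col-0 library. BIL1 was called lower (-0.40 ± 0.15, adjusted p = 0.0418), not after removal of the length trend (-0.23 ± 0.14, adjusted p = 0.264). The deposited call of BIL1 held only without Col-0 replicate 2, MIR394A OE replicate 3 or Brz replicate 1 and was lost without each of the other 6 libraries (-0.40 to -0.31, adjusted p from 0.0524 to 0.169). BIL2 had 35.93, 18.60 and 14.55 FPKM in Brz-treated and 32.47, 33.87 and 25.19 FPKM in untreated Col-0 libraries. Brz replicate 1 was above all Col-0 libraries and the other Brz libraries below them, and BIL2 was not called, as deposited (-0.48 ± 0.27, adjusted p = 0.16) or with the length trend removed (-0.25, adjusted p = 0.394). Without Brz replicate 1 BIL2 was called lower (-0.84, adjusted p = 0.00512), also with the length trend removed (-0.49, adjusted p = 0.0461).

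Summed, the 3 kinases reached 150.7, 112.0 and 106.9 FPKM in Brz-treated and 197.1, 191.0 and 210.6 FPKM in untreated Col-0 libraries (exact permutation p = 0.1, adjusted 0.218). BIN2 made up 47.6, 51.7 and 56.3% of that sum in Brz-treated and 57.3, 59.2 and 63.8% in untreated libraries. The highest Brz share lay just under the lowest Col-0 share, and the exact permutation test again gave p = 0.1 (adjusted 0.218). In MIR394A OE the sum was 188.8, 204.6 and 178.6 FPKM and the BIN2 share 59.7, 61.7 and 55.9%, both within or next to the range of untreated Col-0. Across all 10 Arabidopsis GSK3 kinase genes the FPKM sum was 408.4 ± 5.8 in MIR394A OE, 276.4 ± 63.8 in Brz-treated and 410.0 ± 14.4 in untreated seedlings (SD, n = 3). These sums and shares are as deposited, and BIN2 (1955 bases) is longer than BIL1 (1667) and BIL2 (1771). The median log2 fold change of the 10 genes in Brz-treated against untreated seedlings was -0.48 as deposited and -0.15 with the length trend removed.

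**Figure D3:**
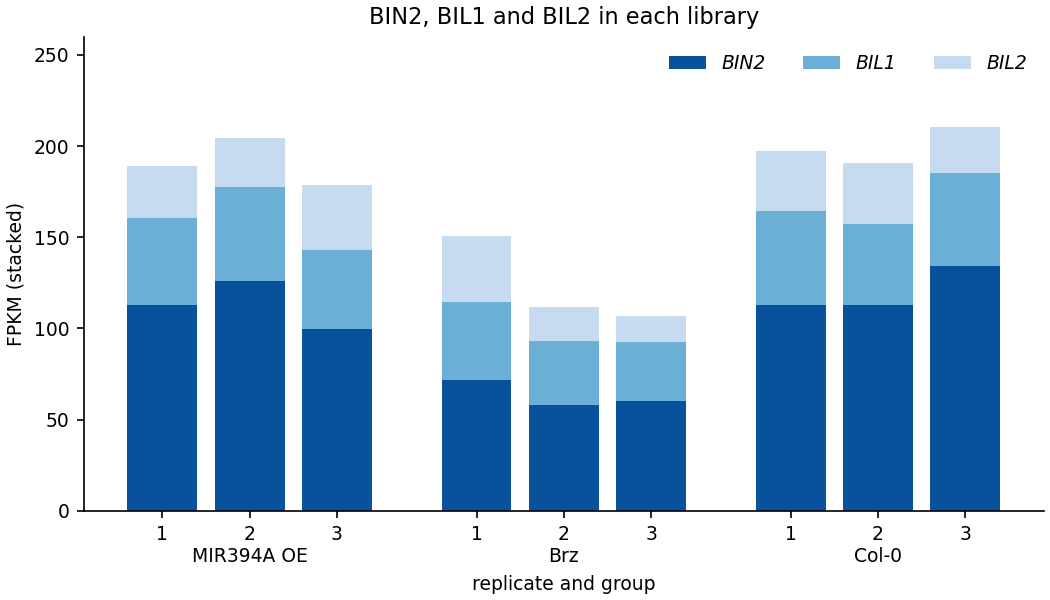
Stacked FPKM of BIN2, BIL1 and BIL2 in each of the 9 libraries, by group and replicate. The Brz-treated bars reach 106.9 to 150.7 FPKM and all other bars 178.6 to 210.6 FPKM, and in Brz replicate 1 the BIL2 segment (35.93) is larger than in any untreated library.

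Of the 7 tested genes, 6 were called lower and 0 higher in Brz-treated than in untreated seedlings, where 28.7% of all tested genes were called lower and 13.2% higher. The median log2 fold change was -0.60 for the 7 genes and -0.22 for all genes. When libraries were rescaled by the median ratio of their genes, 3782 of all genes were lower and 4180 higher, and 4 of the 7 were lower. BRI1 (-1.11, adjusted p = 0.00371), BKI1 (-0.44), BSK1 (-0.31) and BIN2 (-0.66, adjusted p = 0.0118) were called under that scaling, and BAK1 (-0.35, adjusted p = 0.0736) and BIL1 (-0.15, adjusted p = 0.466) were not. Quantile normalization gave 3766 genes lower and 3730 higher, and of the 6 calls only that of BIL1 was lost (-0.38, adjusted p = 0.0538). With the length trend removed, 2 of the 7 were called lower, BKI1 and BIN2, and 0 higher, against 11.2% of all genes lower and 12.7% higher, and the medians were -0.25 for the 7 and -0.01 for all genes. The counts over all genes rest in part on single libraries. Of all genes 2623 were lower without Brz replicate 2 and 2902 without Brz replicate 3, against 5065 with all libraries, and 1523 and 1514 were higher, against 2333. After removal of the length trend, the genes called lower numbered 719 when Brz replicate 2 was left out, 890 for Brz replicate 3, 1145 for Col-0 replicate 1 and 1137 for Col-0 replicate 3, against 1976 with all libraries. Those called higher then numbered 768, 989 and 1316 when Brz replicate 2, Brz replicate 3 or Col-0 replicate 1 was left out, against 2239. Groups did not overlap, with Brz lower, in 7 of all 9 genes (all but BRL3 and BIL2) and in 26.5% of all loci with values. In whole seedlings fewer cells of a type and less RNA per cell cannot be told apart. The summed FPKM of 5 vascular markers ranged from 83.3 to 89.7 in Brz-treated and from 119.9 to 144.9 in untreated libraries, and 3 of the 5 were called lower (1 with the length trend removed). Of 5 green shoot markers 2 were called lower and 1 higher (0 and 1 with the trend removed), and of 5 root markers 1 lower and 0 higher (0 and 1). The summed FPKM of each of these lists overlapped between Brz-treated and untreated libraries. The markers' part in the values of the signalling genes was not tested.

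**Figure D4:**
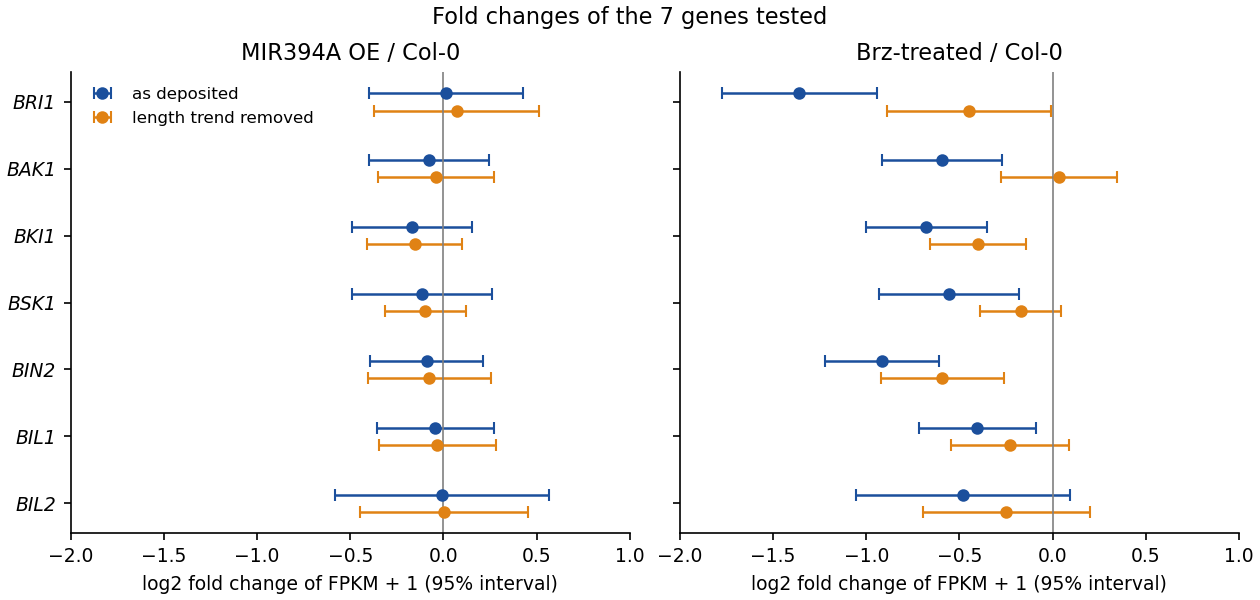
Log2 fold changes of FPKM + 1 with 95% intervals for the 7 tested genes, for MIR394A OE over Col-0 (left) and Brz-treated over untreated Col-0 (right), as deposited in blue and with the length trend removed in orange. On the right the blue points lie between -1.36 and -0.40 and the orange ones between -0.59 and 0.03, and on the left all intervals include 0.

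None of the 7 tested genes was called in MIR394A OE against Col-0, where 0.034% of all genes (6) were called lower and 0 higher by limma. No member had an unadjusted p under 0.05 (smallest 0.279), against 401 of all genes. With the length trend removed, 0 of the 7 and 0.0283% of all genes were called lower, and 0 of either were higher. The log2 fold changes of the 7 then lay between -0.155 (BKI1) and 0.071 (BRI1). None of the 15 tissue markers was called. BRI1 had 47.04, 49.38 and 30.94 FPKM in MIR394A OE, and the third library was below the range of Col-0 while the second was above it. The log2 fold change was 0.01 ± 0.19, with a 95% interval from -0.40 to 0.43. BAK1 had 18.27, 15.85 and 14.69 FPKM in MIR394A OE and a log2 fold change of -0.08 (95% interval -0.40 to 0.25), overlapping Col-0. BSK1 had 19.48, 17.43 and 20.58 FPKM in MIR394A OE and a log2 fold change of -0.12 (95% interval -0.49 to 0.26), also with overlap.

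BKI1 was the member whose MIR394A OE and Col-0 libraries did not overlap. It had 12.20, 12.76 and 11.34 FPKM in MIR394A OE, all below the lowest Col-0 library at 13.22 FPKM. The difference was small, with a log2 fold change of -0.17 ± 0.15 (95% interval -0.49 to 0.16), and 2.79% of all loci with values had MIR394A OE libraries below all Col-0 libraries. Of the kinases downstream, BIN2 had 112.69, 126.27 and 99.77 FPKM in MIR394A OE and a log2 fold change of -0.09 ± 0.14 (95% interval -0.40 to 0.21). BIL1 had 48.15, 51.11 and 43.14 FPKM in MIR394A OE and a log2 fold change of -0.04 (95% interval -0.36 to 0.27). BIL2 had 28.01, 27.26 and 35.70 FPKM in MIR394A OE and a log2 fold change of -0.01 (95% interval -0.58 to 0.57). All 3 overlapped with Col-0, and the interval of BIL2 as deposited includes the -0.48 of BIL2 in Brz-treated seedlings. With the length trend removed, the intervals of BAK1, BKI1, BSK1, BIL1 and BIL2 each included the gene's own value in Brz-treated against untreated seedlings. For BKI1 the interval was -0.412 to 0.102, against -0.40. The intervals of BRI1 and BIN2 did not include theirs. The signs of BRI1, BAK1, BIN2, BIL1 and BIL2 in this comparison each turned in some of the fits that left out a library, and those of BKI1 and BSK1 did not.

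Set directly against each other, MIR394A OE and Brz-treated seedlings differed in 4 of the 7 genes, all higher in MIR394A OE, where 25.8% of all tested genes were called higher and 12% lower. This comparison uses the same libraries as the ones above. Of all genes 2726 were called higher without MIR394A OE replicate 1, 2294 without Brz replicate 2, 2509 without Brz replicate 3 and 6854 without Brz replicate 1, against 4559 with all libraries. When MIR394A OE replicate 1 or 2 or Brz replicate 2 or 3 was left out, 1252 to 1303 were called lower, against 2115, and after removal of the length trend 533 to 712 were higher, against 1746, and 507 to 808 lower, against 1875. The vascular markers summed to 104.8 to 165 FPKM in MIR394A OE and 83.3 to 89.7 FPKM in Brz-treated libraries, and 4 of the 5 were called higher (1 with the length trend removed). Of the green shoot markers 2 were higher and 1 lower (0 and 1), and of the root markers 1 was higher and 0 lower (1 and 0). The root markers summed to 79.7 to 102.3 FPKM in MIR394A OE and 63.7 to 73.1 FPKM in Brz-treated libraries, without overlap. The sums of the green shoot markers overlapped. The part of these markers was not tested. The log2 fold change was 1.37 ± 0.19 for BRI1 (adjusted p = 0.000795), and 0.83 ± 0.14 for BIN2 (adjusted p = 0.00159). BAK1 (0.52, adjusted p = 0.0176) and BKI1 (0.51, adjusted p = 0.0192) were higher as well, but not under median-ratio scaling (0.30 and 0.29, adjusted p = 0.129 and 0.0905), where 3589 of all genes were higher and 3931 lower, nor under quantile normalization (0.35 and 0.28, adjusted p = 0.0709 and 0.0885). BSK1 (0.44, adjusted p = 0.0611), BIL1 (0.36, adjusted p = 0.0675) and BIL2 (0.47, adjusted p = 0.172) were not called as deposited with all libraries. Without Brz replicate 1 these 3 were called higher (BSK1 0.61, BIL1 0.47, BIL2 0.83), and BIL1 also without MIR394A OE replicate 3 (0.43, adjusted p = 0.0478). The call of BAK1 was lost without MIR394A OE replicate 1 or Brz replicate 2 (0.44 in both, adjusted p = 0.0888 and 0.0838). That of BKI1 was lost without MIR394A OE replicate 1 or 2 or Brz replicate 2 or 3 (0.41 to 0.54, adjusted p from 0.0507 to 0.0934). With the length trend removed, BIN2 alone was called higher (0.52 ± 0.15, adjusted p = 0.0366), where 9.89% of all genes were higher and 10.6% lower, and BRI1 had 0.52 ± 0.20 (adjusted p = 0.0888). This call of BIN2 held without a Col-0 library or MIR394A OE replicate 3 and was lost without each of the other 5 libraries (0.39 to 0.54, adjusted p from 0.0728 to 0.125). BRI1 was called without MIR394A OE replicate 3 (0.72, adjusted p = 0.0176). With all libraries and the trend removed, BAK1 had -0.07 (adjusted p = 0.731), with its sign turned. BKI1 (0.245), BSK1 (0.075), BIL1 (0.195) and BIL2 (0.252) were not called there either (adjusted p from 0.155 to 0.608). The ratio of BRI1 to BAK1 was 2.58, 3.12 and 2.11 in MIR394A OE, above all Brz libraries and overlapping Col-0.

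By level, BIN2 stood above the receptors and all other members in all groups. In untreated Col-0 the mean was 120.1 ± 12.3 FPKM for BIN2, 48.9 ± 4.3 for BIL1, 41.5 ± 5.8 for BRI1, 30.5 ± 4.7 for BIL2, 20.9 ± 2.4 for BSK1, 17.2 ± 1.1 for BAK1 and 13.7 ± 0.5 for BKI1, with BRL3 and BRL1 under 1 FPKM (SD, n = 3). The libraries of BIL1 and BRI1 overlapped, as did those of BSK1 and BAK1 and those of BRL3 and BRL1, while the other neighbours in the order did not. BIN2 stood at the 96.5th percentile of all loci with values and BRL1 at the 24.8th. MIR394A OE seedlings had the same order down to BKI1, with BRI1 (42.5 ± 10.04) overlapping both BIL1 (47.5 ± 4.0) and BIL2 (30.3 ± 4.7). Long transcripts were low in Brz-treated libraries, so an order of levels there mixes level and length. In these seedlings BRI1 (15.6 ± 2.2 FPKM) came after BIL2 (23.0 ± 11.4), and its libraries overlapped those of BIL2 and of BSK1 (14.0 ± 3.3). BRI1 stood at the 78.3rd percentile of loci in Brz-treated and at the 89.9th in untreated seedlings, as deposited and without regard to length.

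BZR1 is known to bind the sequences CGTGTG and CGTGCG, and BES1 also CANNTG, of which CACGTG is a form. These letters were looked for on both strands of the 250 bases before the annotated start of each gene. CGTGTG was in 0 and CGTGCG in 1 of the 9 windows, against 5.37% and 1.57% of 27436 windows of all genes, and CANNTG was in 4 of the 9, against 55.33%. CACGTG was in 0 of the 9, against 6.49%. BRI1, the member with the largest log2 fold change as deposited, held a single CANNTG that begins 214 bases before the start, and BAK1 was the one with CGTGCG, 99 bases before the start, beside a CANNTG at 156. Their windows are printed from TAIR10.1 in the direction of the gene, with these matches in capitals; BRI1 is at chr4:18324207-18324456 on the + strand and BAK1 at chr4:16090833-16091082 on the − strand:
BRI1: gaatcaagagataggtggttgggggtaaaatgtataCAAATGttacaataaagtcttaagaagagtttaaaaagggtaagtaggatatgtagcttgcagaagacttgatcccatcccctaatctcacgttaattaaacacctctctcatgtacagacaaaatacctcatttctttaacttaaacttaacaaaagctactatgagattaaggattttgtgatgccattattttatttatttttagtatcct
BAK1: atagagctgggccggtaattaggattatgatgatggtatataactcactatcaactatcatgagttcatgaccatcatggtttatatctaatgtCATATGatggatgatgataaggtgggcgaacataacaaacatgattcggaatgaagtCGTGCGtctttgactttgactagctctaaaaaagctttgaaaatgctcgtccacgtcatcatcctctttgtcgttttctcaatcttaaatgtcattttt
A match is a description of the letters and not a binding site, and its absence says nothing of binding elsewhere in the gene.

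The other genes of the pathway were followed as lists of receptors, receptor regulators, BSK and CDG1 kinases, GSK3 kinases, phosphatases and transcription factors. They were 37 genes in all, of which 34 had values and 30 were tested. In Brz-treated against untreated seedlings, 14 of the 30 were called lower and 0 higher, with a median log2 fold change of -0.52, where 28.7% of all genes were lower and 13.2% higher with a median of -0.22. With the length trend removed, 5 were called lower and 2 higher, with a median of -0.03, where 11.2% of all genes were lower and 12.7% higher with a median of -0.01. The counts of the single lists, of 4 to 7 genes, stand against these same shares. The 4 other receptors and co-receptors gave 3 lower as deposited and 0 with the trend removed: BRL2 (-1.17 as deposited and -0.36 with the trend removed), a BRI1 relative, SERK1 (-0.80 and -0.25) and SERK4 (-0.80 and -0.27), relatives of BAK1. Of the 7 other regulators 2 were lower as deposited, BIR1 (-0.63, and 0.004 with the trend removed) and BRS1 (-0.89). BRS1, a carboxypeptidase found as a suppressor of a weak bri1 mutant, was also lower with the trend removed (-0.69, adjusted p = 0.0184). PUB13, a ubiquitin ligase of BRI1, was higher only with the trend removed (0.40, adjusted p = 0.0326), and as deposited it had -0.20.

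Among the kinases next to the members, the list of BSK and CDG1 kinases had 7 other tested genes, CDL1 among them. Of these 1 was called lower as deposited and with the trend removed, BSK7 (-0.90 as deposited, adjusted p = 0.00391, and -0.34 with the trend removed, adjusted p = 0.0353). BSK3 was higher with the trend removed (0.46, adjusted p = 0.0116) and had -0.17 as deposited. The 7 other GSK3 genes had 3 lower as deposited, and of these SK41 (-0.88, adjusted p = 0.00867) and SK11 (-0.83, adjusted p = 0.0293) were lower with the trend removed as well (-0.45 and -0.65). All 5 tested phosphatases and transcription factors were lower as deposited, from -1.20 in BSL1 to -0.76 in BSL3. With the trend removed, BZR1 alone of them was called (-0.62, adjusted p = 0.0348), and BES1 (-0.40, adjusted p = 0.0615) and BSL1 (-0.47, adjusted p = 0.0605) were not. In MIR394A OE against Col-0, 0 of the 30 were called and the median was 0.01. In MIR394A OE against Brz-treated seedlings, 15 were called higher and 0 lower as deposited, where 25.8% of all genes were higher and 12% lower, and 5 higher and 2 lower with the trend removed, where 9.89% were higher and 10.6% lower. Those higher both ways were BSL1, BES1, BSK7, SK41 and BRS1, from 0.72 (BRS1) to 1.22 (BSL1) as deposited.

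**Figure D5:**
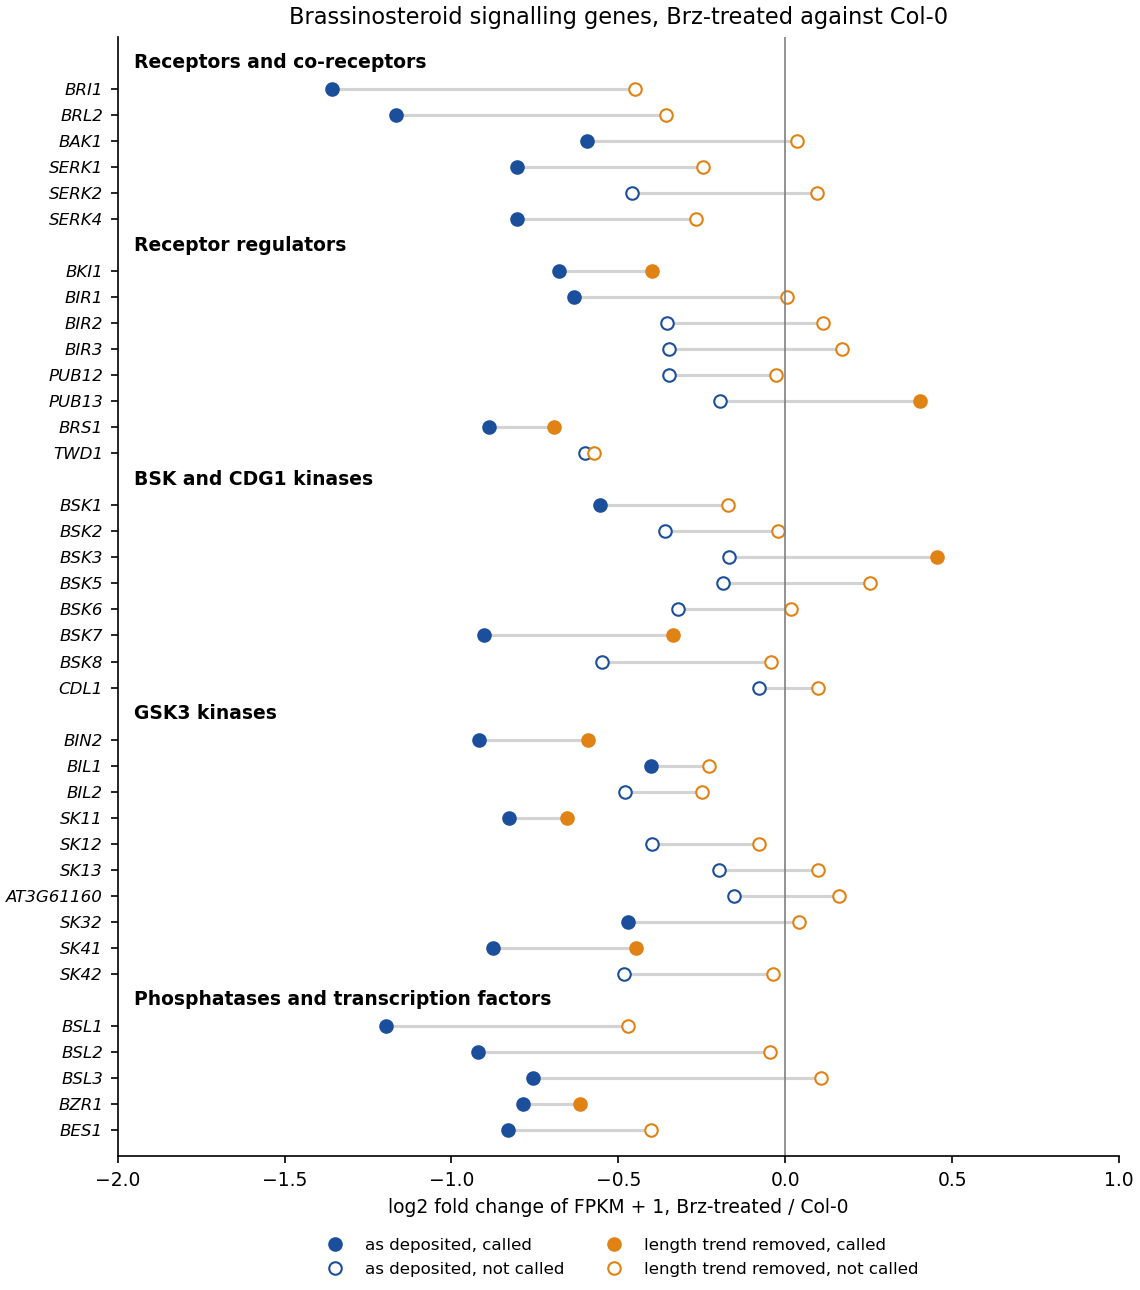
Log2 fold change of FPKM + 1 (Brz-treated over untreated Col-0) for the 37 tested genes of the pathway, members included, by list, as deposited in blue and with the length trend removed in orange, filled where called at an adjusted p under 0.05. Blue points all lie below 0, orange points lie on both sides, and the filled orange points on the left include BIN2 and BKI1.

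The genes whose pattern over the 9 libraries was most like that of BRI1 with the length trend removed were AT2G01970 (Pearson r = 0.996), AT4G11380 (0.995) and AT4G14160 (0.995). For BIN2 they were RPH1 (0.995), ATL5 (0.993) and AT2G35155 (0.992). Of the 17662 tested genes 865 had r over 0.9 with BRI1 and 844 with BIN2, so these likenesses are not rare. The 9 points share the group structure and the spread of the libraries on the first and second principal components.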

How the data were processed

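The authors deposited 1 table of FPKM values for 9 libraries of whole seedlings, given to 2 decimals, per the file headers. The submitters' processing notes name Bowtie2 and HISAT, with no version or role. Not given in the sources used here: the genome build, the annotation, the program behind FPKM and the use of strand. All 9 value columns were used. Of 27647 loci, 3316 were blank and 24331 had values. No 2 libraries were identical. FPKM is not a count, so depth was fitted from low values, of which 86.1 to 89.7% lay within 0.1 of a whole fragment. The share is too low to rebuild counts, and counting error is not given per value.

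Genes with at least 1 FPKM in at least 3 libraries were tested on log2(FPKM + 1), a scale that understates changes of low genes, with limma 3.58.1 in R 4.3.3. The fit used eBayes with an intensity trend, group means of all 9 libraries, 6 residual degrees of freedom, 2-sided tests and Benjamini-Hochberg adjustment. The length trend was a loess on log2 length of the longest spliced TAIR10.1 transcript, fitted per library with span 0.5 on deviations from the gene's mean. 132 tested genes without a length were shifted by the library median. The script was tested on simulated data. Coding sequences were aligned with Biopython 1.88, and sequences and coordinates are from the RefSeq record of TAIR10.1, where 27438 loci matched. Sums and ratios were compared with exact permutation tests.

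The members, the lists and the tests were chosen with earlier results of these data known. Besides the 9 members, the genes named were list genes called with and without the length trend (at most 6 per comparison), the 3 genes most like BRI1 and most like BIN2, and the check genes. BRL2, SERK1, SERK4, BIR1, PUB13, BSK3 and BSL3 were named after their values were seen. Alternatives covered scaling, filter, pseudocount, variance model, length trend, replicate block, library weights and left-out libraries. Those added after seeing the data combined no filter with a pseudocount of 0.1, with and without the length trend, and the removal of the trend with the left-out pair of Col-0 replicate 2 and MIR394A OE replicate 3.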

Additional observations from a re-analysis of the deposited data

How the results depend on the processing

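Brz-treated against Col-0: 6 members were called lower, where 28.7% of all tested genes were. The member count was 2 with the length trend removed, where 11.2% of all genes were lower. It was 0 with a replicate block and the trend removed. Without a filter, at a pseudocount of 0.1 and with the trend removed, it was 1. The all-gene count of that last fit is not given here, so its member count is not read as a result about the members. With a library left out 4 to 7 members were lower, against 2623 to 7173 of all genes. With the trend also removed these were 0 to 2 members and 719 to 2332 genes. MIR394A OE against Brz-treated: 4 members were called higher, where 25.8% of all tested genes were. The member count was 2 under median-ratio scaling and 2 under quantile normalization. With the trend removed it was 1, where 9.89% of all genes were higher. It was 0 with a block and the trend removed, and 7 with library weights. Without a filter, at a pseudocount of 0.1 and with the trend removed, it was 0. For the block, the weights and no filter, the all-gene counts of this comparison are not given here. Those member counts are therefore not read as results about the members. With a library left out 2 to 7 members were higher, against 2294 to 6854 of all genes. With the trend also removed these were 0 to 2 members and 533 to 2249 genes. In MIR394A OE against Col-0, 0 members were called under every alternative run.

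Replicate numbers gave no close pairing of the libraries: deviations of same-numbered libraries had correlations of -0.64 to 0.153. Between MIR394A OE and Brz-treated libraries, the same-numbered library was the best partner each time, at 0.016, 0.153 and 0.038. Between MIR394A OE and Col-0 libraries it never was, and MIR394A OE replicate 3 was closest to Col-0 replicate 2. With the replicate block alone, 5 members were lower in Brz-treated seedlings, BIL1 being lost, and 4 higher in MIR394A OE than in Brz-treated seedlings. The all-gene counts of these comparisons under the block alone are not given here. These member counts are therefore not read as results about the members.

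Signs turned as follows. With the length trend removed, with or without the block, BAK1 had 0.034 in Brz-treated against Col-0 and -0.074 in MIR394A OE against Brz-treated, and 0.096 and -0.128 without a filter and at a pseudocount of 0.1. There BRL1 had 0.373 and -0.156, and BRL3 0.698 and -0.73. In MIR394A OE against Col-0, BIL2 had 0.012 under median-ratio scaling, 0.004 with the trend removed (with or without the block) and 0.011 without a filter, at a pseudocount of 0.1 and with the trend removed, and library weights put BAK1 at 0.00. With a library left out, trend kept or removed, values that crossed 0 ran from -0.652 to 0.146 for BAK1 in Brz-treated against Col-0 and from -0.189 to 0.585 in MIR394A OE against Brz-treated. In MIR394A OE against Col-0 they ran from -0.108 to 0.275 for BRI1, -0.158 to 0.043 for BAK1, -0.199 to 0.049 for BIN2, -0.148 to 0.08 for BIL1 and -0.135 to 0.071 for BIL2. No turned value was called, and the cause was not tested.

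Of all genes, 5065 were lower and 2333 higher in Brz-treated than in untreated seedlings. The counts were 3782 and 4180 under median-ratio scaling, 3730 higher under quantile normalization, 1976 lower with the trend removed, 1110 and 1374 with the block and the trend removed, and 8874 lower with library weights. In MIR394A OE against Col-0, 6 were lower, 3 without a filter, with the block or with 2 groups only, and 434 lower and 474 higher with library weights. Arms left with 2 libraries were taken to vary like the others. With 3 libraries a group, the 95% intervals of the tested members in MIR394A OE against Col-0 reached down to -0.58 and up to 0.57 (BIL2), and low values limit BRL1 and BRL3.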
